A study of Sus scrofa with 4 samples.

Results

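The Toll-like receptors TLR1 to TLR10 are pattern recognition receptors of the innate immune system. The 10 names were looked up in tables of counts per gene from pig lung cells, and 9 of the 29263 genes listed there were found: 8 by their symbol, and TLR9 through its Ensembl identifier. TLR7 was matched neither by symbol nor by identifier and was not analysed here. All cells came from the lungs of pigs carrying the LGR5-H2B-GFP knock-in allele, where green fluorescent protein fused to a histone reports transcription of LGR5, a receptor for R-spondins. Cells with bright fluorescence (GFP-HI) and cells without fluorescence (GFP-NEG) were sorted, with 2 biological replicates of each, so both groups carry the same allele and neither received an agent. The labels give no age, sex or strain and cover adult and fetal lung in a single protocol. The name of the deposited comparison table speaks of adult pigs. A histone fusion protein is stable, so it can outlast the transcription of LGR5. Antibodies to EPCAM and NGFR appear in the protocol, and the gates used for these libraries are not stated.

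Toll-like receptors bind conserved molecules of microbes and signal through adaptor proteins to the transcription factors NF-kappa-B and IRF, which switch on cytokine genes. TLR1, TLR2, TLR4, TLR5, TLR6 and TLR10 sit at the cell surface, where most bind lipids, lipoproteins or flagellin, and TLR3, TLR7, TLR8 and TLR9 sit in endosomes, where they bind nucleic acids. In the lung they are best known from macrophages, neutrophils, dendritic cells and B cells, and some are also made by epithelial cells and fibroblasts.

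The GFP-HI libraries held 24200550 and 24689986 counts and the GFP-NEG libraries 6292253 and 7045652, so GFP-HI was sequenced 3.67 times as deeply, and depth and group cannot be told apart by the design. LGR5 was at 146 and 152 CPM (counts scaled to a common library total with edgeR's TMM factors) in GFP-HI and at 1.55 and 0.767 CPM in GFP-NEG. The shallower GFP-NEG libraries nevertheless held counts for more genes (24120 and 25985) than the GFP-HI libraries (18752 and 18392). Of 36 listed genes restricted to tissues other than lung, 23 had 0 counts in both GFP-HI libraries. These genes were also lower more often than higher in GFP-HI: 18 of the 36 were lower and 2 higher in both GFP-HI libraries than in both GFP-NEG libraries, and of the 10 tested 4 were called lower and 2 higher, with a median log2 fold change of -1.81. The part of such background counts in the differences of the low receptors was not tested. The 95th percentile of these 36 genes was 4.58 and 6.71 CPM in the GFP-NEG libraries, and 5.56 and 12.8 CPM in the GFP-HI libraries. All 9 receptors were above this level in GFP-NEG replicate 1, and all but TLR5 in GFP-NEG replicate 2. In GFP-HI, TLR2, TLR3 and TLR4 were above it in both libraries and TLR5 in replicate 1, so the GFP-HI levels of the other 5 lie within the range of genes not expected in lung.

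Most Toll-like receptor transcripts were lower in the LGR5-reporter-bright cells. By the quasi-likelihood test of edgeR, with p-values adjusted over 19682 genes by the Benjamini-Hochberg method and a threshold of 0.05, 6 of the 9 receptors were lower in GFP-HI (TLR1, TLR2, TLR4, TLR8, TLR9 and TLR10), 1 was higher (TLR5), and TLR3 and TLR6 did not pass. Of all genes tested, 27.6% were called lower and 8.35% were called higher. TLR10 passed the filter on low counts through the GFP-NEG libraries alone, and of the other 8 receptors 5 were lower and 1 was higher. TLR8, among these 5, was past the filter cutoff in only 1 GFP-HI library. It too needed the GFP-NEG libraries to pass the filter. The 2 groups did not overlap for any of the 9, with 7 receptors lower and 2 higher in both GFP-HI libraries, while 42.0% and 27.7% of all tested genes were apart in these directions. The median log2 fold change over the 9 receptors was -3.25, and that over all genes tested was -0.25. In bulk samples, fewer cells of a type and less RNA per cell cannot be told apart. The labels call the replicates biological, and column headings of the deposited comparison table number the pigs 1 and 2, although some of those headings stand over the counts of another library.

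**Figure D1:**
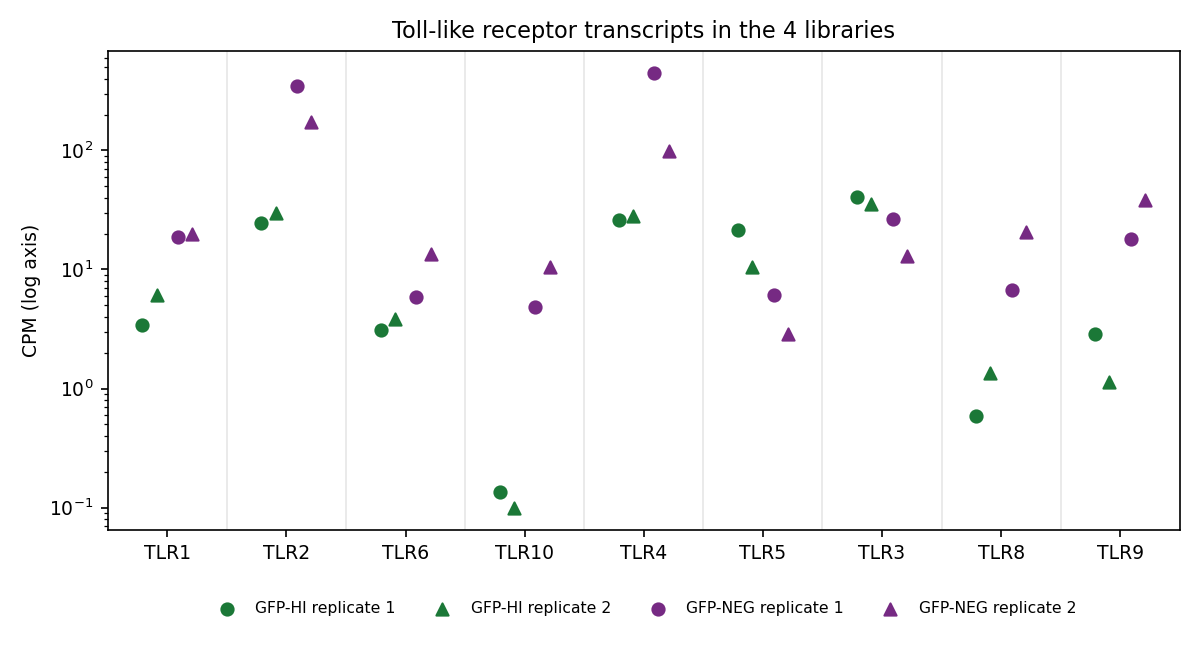
CPM (log axis) of the 9 Toll-like receptor genes in each of the 4 libraries, with GFP-HI in green, GFP-NEG in purple, circles for replicate 1 and triangles for replicate 2. TLR3 and TLR5 are higher in both GFP-HI libraries than in both GFP-NEG libraries, and the other 7 genes are lower.

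The lower receptors changed little in number with the processing, and the 1 higher receptor did. DESeq2 and the fit with the replicate block each gave 6 lower and 1 higher, where they called 26.7% and 24.4% of all genes lower and 6.91% and 8.67% higher. Lower receptors numbered 6 and higher receptors 0 with DESeq2 and the block together (background 16.0% and 6.13%), library size alone (29.1% and 4.51%), upper-quartile scaling (28.6% and 5.5%) and GFP-HI thinned to the GFP-NEG depth (21.6% and 7.01%). With a 2-fold change as the null, 5 were lower and 0 higher (23.9% and 3.61%). Leaving out GFP-HI replicate 2 (21.7% and 4.53%) or GFP-NEG replicate 1 (20.5% and 7.82%) left 6 lower and 1 higher. Without GFP-HI replicate 1 (23.8% and 7.63%) 5 were lower and 0 higher, and without GFP-NEG replicate 2 (6.98% and 1.04%) 4 were lower and 0 higher.

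Among the receptors for lipoproteins, TLR2 forms pairs with TLR1 or TLR6 and had the smallest adjusted p of the group. TLR2 was at 24.8 and 29.9 CPM in the GFP-HI libraries and at 349 and 172 CPM in the GFP-NEG libraries. Both GFP-NEG libraries were far above both GFP-HI libraries, and replicate 1 of GFP-NEG was the higher by 2.03 times. The means were 27.3 ± 3.61 CPM in GFP-HI against 260 ± 125 CPM in GFP-NEG (SD, n = 2 each), and TLR2 fell by 3.25 on the log2 scale (SE 0.64, adjusted p = 9.8e-06, edgeR), which is 9.52-fold lower. The log2 fold change was -2.65 without GFP-NEG replicate 1 and -3.67 without GFP-NEG replicate 2, past the threshold in both.

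TLR1, the partner of TLR2 for triacylated lipopeptides, was at 3.40 and 6.05 CPM in GFP-HI and at 18.8 and 19.8 CPM in GFP-NEG. Its GFP-NEG libraries were nearly equal, and both were above the GFP-HI libraries. TLR1 fell by 2.03 (SE 0.65, adjusted p = 0.0072, edgeR). This call was lost without GFP-HI replicate 1 (-1.60, adjusted p = 0.11), without GFP-NEG replicate 2 (-1.99, adjusted p = 0.072) and when a 2-fold change was the null (adjusted p = 0.054).

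TLR6, the partner of TLR2 for diacylated lipopeptides, was at 3.08 and 3.82 CPM in GFP-HI and at 5.90 and 13.4 CPM in GFP-NEG. Its groups were apart in the same direction as those of TLR1, and the GFP-NEG libraries differed by 2.27 times. The log2 fold change of -1.49 (SE 0.80) did not pass the threshold (adjusted p = 0.14, edgeR).

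TLR10, whose ligand is less well defined than those of its relatives, had 3 and 2 counts in the GFP-HI libraries and 31 and 95 counts in the shallower GFP-NEG libraries. This is 0.136 and 0.0991 CPM against 4.81 and 10.4 CPM, so TLR10 was close to the detection limit in GFP-HI. Pooled over the libraries of a group, its level was 68.4 times as high in GFP-NEG, with an exact 95% interval of 28.5 to 214 that covers counting error only. The fitted log2 fold change was -5.92 (SE 1.26, adjusted p = 5.2e-05, edgeR). It was -5.26 without GFP-NEG replicate 2 and -8.77 with GFP-HI thinned to the GFP-NEG depth, so the size of the TLR10 difference is poorly fixed.

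TLR10, TLR1 and TLR6 are close relatives that lie next to each other in that order in the RefSeq annotation of Sscrofa11.1, with 0 protein-coding genes between them. RefSeq also lists TLR6 as a synonym of TLR1. Reads that match more than 1 of them could have been counted for either or dropped, so the split between these 3 genes is uncertain. With their counts summed to 1 gene before the fit, the log2 fold change was -2.14 (adjusted p = 8.6e-04, edgeR).

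TLR4, the receptor for bacterial lipopolysaccharide, was at 26 and 28 CPM in GFP-HI and at 451 and 99.4 CPM in GFP-NEG. The GFP-HI libraries were nearly equal, and the GFP-NEG libraries differed by 4.53 times, the widest gap within GFP-NEG among the 9 receptors. TLR4 fell by 3.35 (SE 0.64, adjusted p = 6.7e-06, edgeR), or 10.2-fold. Much of this size came from GFP-NEG replicate 1: without that library the log2 fold change was -1.88 (adjusted p = 0.023), and without GFP-NEG replicate 2 it was -4.06. Within replicates, the difference in log2 CPM was -4.11 in replicate 1 and -1.83 in replicate 2.

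TLR5, the receptor for flagellin, went the other way. It was at 21.4 and 10.4 CPM in GFP-HI and at 6.06 and 2.85 CPM in GFP-NEG, from 473, 209, 39 and 26 counts. Each fraction spread by about the same factor, 2.07 times in GFP-HI and 2.12 times in GFP-NEG, with replicate 1 higher in both. TLR5 was higher in GFP-HI by 1.85 on the log2 scale (SE 0.70, adjusted p = 0.025, edgeR), which is 3.60-fold, and log2 CPM differed by 1.80 between the replicate 1 libraries and by 1.81 between the replicate 2 libraries. Leaving out GFP-NEG replicate 1 gave 2.48 and kept the call (adjusted p = 0.023). The direction held in all 15 alternatives but the call was lost in 7 of them, where the adjusted p ranged up to 0.32. These included plain library-size scaling (1.5, adjusted p = 0.13), thinning of GFP-HI to the GFP-NEG depth (1.70, adjusted p = 0.066), leaving out GFP-HI replicate 1 (1.29, adjusted p = 0.32) and leaving out GFP-NEG replicate 2 (1.39, adjusted p = 0.29).

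**Figure D2:**
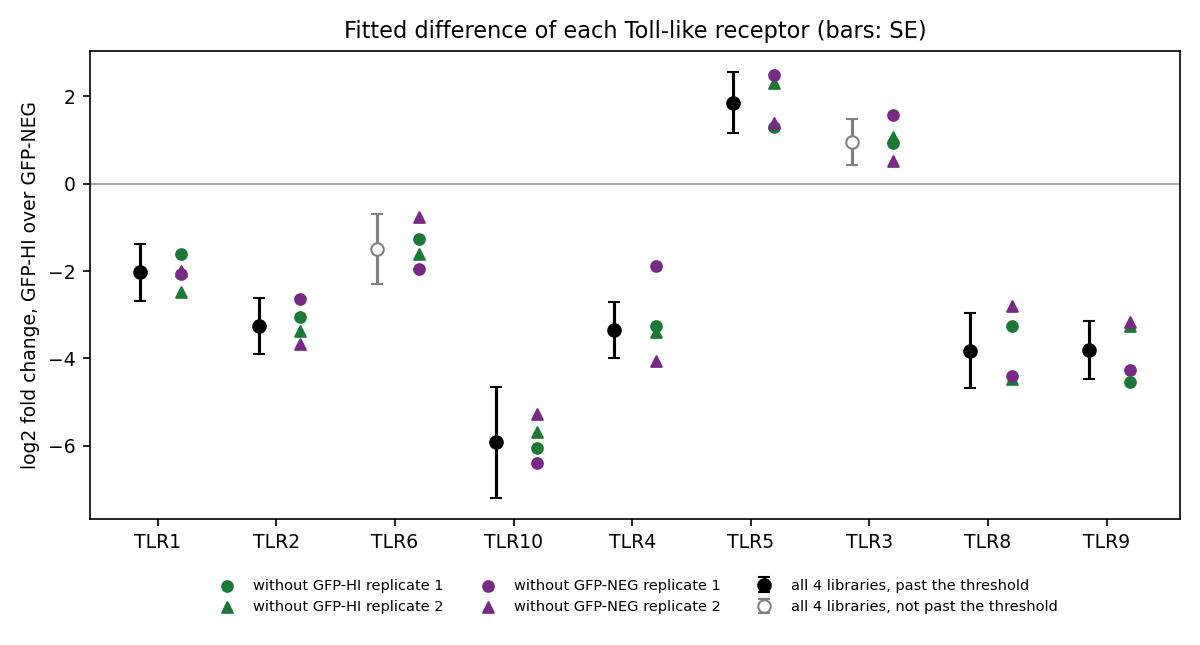
Log2 fold change of GFP-HI over GFP-NEG for each receptor, with all 4 libraries (black or open circles, bars are the SE) and with each library left out in turn (coloured symbols). No receptor changes its direction, and TLR4 moves from -3.35 to -1.88 without GFP-NEG replicate 1.

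TLR3 is the endosomal receptor for double-stranded RNA. It was at 40.5 and 35.8 CPM in GFP-HI and at 26.5 and 12.9 CPM in GFP-NEG, from 893, 722, 171 and 118 counts. Both GFP-HI libraries were above both GFP-NEG libraries, and GFP-NEG spread by 2.05 times. The log2 fold change of 0.95 (SE 0.53) did not pass the threshold (adjusted p = 0.16, edgeR), and it ranged from 0.52 to 1.56 over the alternatives, with adjusted p-values from 0.11 to 0.72. TLR3 RNA was thus detected in every library at 12.9 CPM or more, and a difference between the fractions was not established.

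TLR8, an endosomal receptor for single-stranded RNA, was at 0.589 and 1.34 CPM in GFP-HI and at 6.68 and 20.5 CPM in GFP-NEG. Replicate 2 was the higher library in both fractions. TLR8 fell by 3.82 (SE 0.85, adjusted p = 1.1e-04, edgeR). Its call was lost without GFP-NEG replicate 2 (-2.79, adjusted p = 0.084), and its log2 fold change was -4.46 without GFP-HI replicate 2 and -4.41 without GFP-NEG replicate 1. The RefSeq span of TLR7 lies inside that of TLR8, and RefSeq gives TLR7 as a synonym of TLR8, so reads of the pair may not be fully separated.

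TLR9, the endosomal receptor for unmethylated CpG DNA, was at 2.85 and 1.14 CPM in GFP-HI and at 18 and 38.4 CPM in GFP-NEG. The order of the replicates was opposite in the 2 fractions, and the lower GFP-NEG library was still above both GFP-HI libraries. TLR9 fell by 3.81 (SE 0.66, adjusted p = 5.6e-07, edgeR), or 14.0-fold. The log2 fold change was -4.53 without GFP-HI replicate 1 and -3.17 without GFP-NEG replicate 2, past the threshold in both.

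The authors' deposited table lists 8 of these receptors, without TLR10, and calls 5 lower and 1 higher in GFP-positive cells, where it calls 11.2% and 8.2% of its 16250 genes. In the authors' deposited table the log2 fold changes are -3.25 for TLR2, -3.35 for TLR4 and 1.84 for TLR5, and the adjusted p of TLR5 is 0.047. The authors' deposited table gives adjusted p-values of 0.21 for TLR3 and 0.14 for TLR6.

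The levels of cell type markers were set beside these differences, where 27.6% of all genes tested were lower and 8.35% higher. Of 3 pan-leukocyte genes (PTPRC, CORO1A and LCP1), all 3 fell, and their summed level was 181 and 417 CPM in GFP-HI against 2740 and 4120 CPM in GFP-NEG. The neutrophil list summed to 188 and 168 CPM in GFP-HI against 1950 and 849 CPM in GFP-NEG, with 5 of 6 tested genes lower. S100A12, the gene of that list that was not called, was at 91.6 and 135 CPM against 423 and 95 CPM. The B cell list summed to 88.9 and 183 CPM against 300 and 693 CPM, with 7 of 8 genes lower. Most of the GFP-HI sum was CD79A, the gene of that list that was not called, at 77.8 and 159 CPM against 107 and 252 CPM. For conventional dendritic cells the sums were 14.3 and 35.3 CPM against 202 and 288 CPM, with 5 of 6 genes lower. The macrophage and monocyte list differed less, at 600 and 504 CPM in GFP-HI against 2200 and 808 CPM in GFP-NEG, with 5 of 11 genes lower. T and NK cell genes were lower in 8 of 9, endothelial genes in 6 of 6, and epithelial genes in 2 of 7, which is near the share over all genes. The plasmacytoid dendritic cell list had 3 of 5 genes lower. Its sum in GFP-HI was carried by TCF4, a transcription factor that also occurs in other cells. TCF4 was higher in GFP-HI, at 475 and 647 CPM against 166 and 59.5 CPM in GFP-NEG. TCF4, S100A12, CD79A and the 3 collagen genes below were named after their values were seen. Fibroblast genes were higher in 6 of 9, with sums of 81800 and 72300 CPM in GFP-HI against 25300 and 9020 CPM in GFP-NEG. Most of each fibroblast sum was COL1A1, COL1A2 and COL3A1, the 3 genes of that list that were not called. Their log2 fold changes were 1.88, 1.79 and 2.16 (adjusted p = 0.36, 0.46 and 0.29, edgeR). None of the tabulated markers in these 10 lists was at 0 in both GFP-HI libraries. The part of cell makeup in the receptor differences was not tested.

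**Figure D3:**
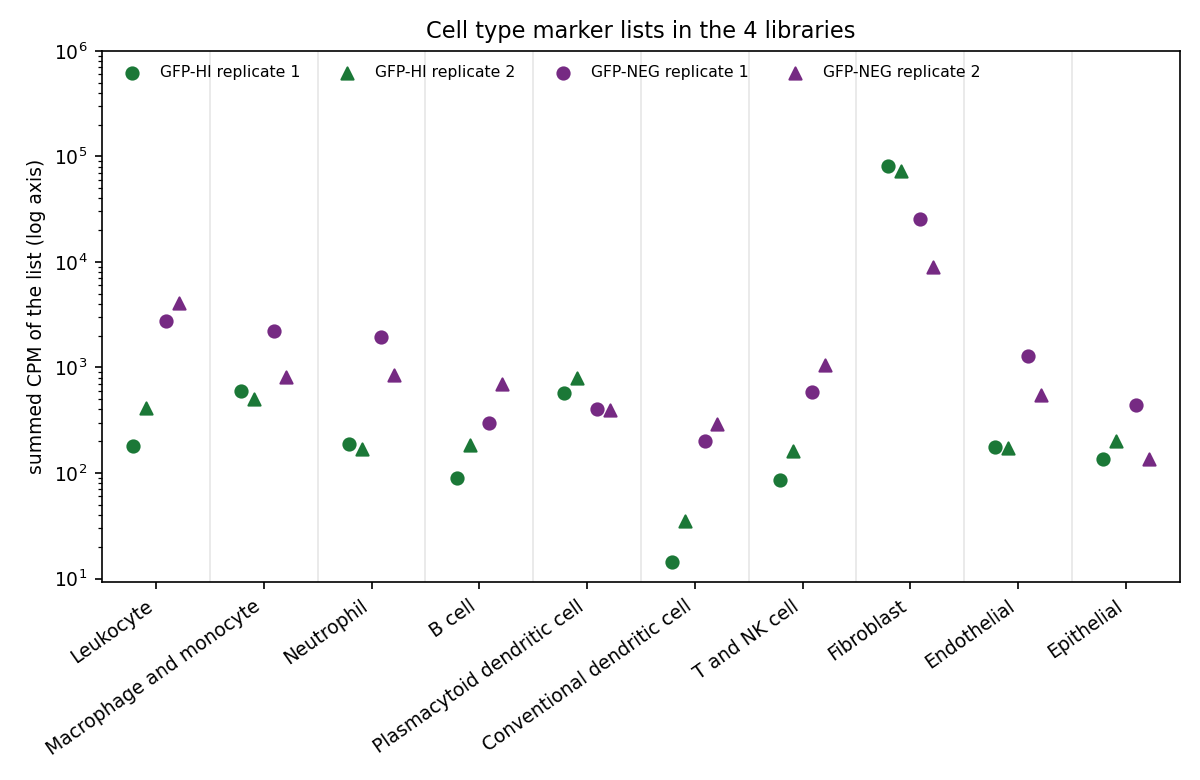
Summed CPM (log axis) of 10 cell type marker lists in each library, with symbols for the 4 libraries as named in the key. Leukocyte, macrophage and monocyte, neutrophil, B cell, conventional dendritic cell, T and NK cell and endothelial sums are higher in both GFP-NEG libraries. The fibroblast and plasmacytoid dendritic cell sums are higher in both GFP-HI libraries, and the epithelial sums overlap.

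The GFP-NEG replicates differed in which receptors they held. TLR2, TLR3, TLR4 and TLR5 were higher in replicate 1, by 2.03, 2.05, 4.53 and 2.12 times. TLR6, TLR8, TLR9 and TLR10 were higher in replicate 2, by 2.27, 3.07, 2.13 and 2.16 times, and TLR1 was nearly equal. GFP-NEG replicate 1 also had the larger sums of macrophage, neutrophil, endothelial, epithelial and fibroblast genes, and GFP-NEG replicate 2 the larger sums of pan-leukocyte, B cell, T and NK cell and conventional dendritic cell genes. With 1 library of each kind, this is a description of those libraries.

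Counts were also set against PTPRC, which encodes the leukocyte protein CD45, in each library. This measure was chosen after the values were seen. On this scale 70.7% of all tested genes are higher in both GFP-HI libraries and 14.7% are lower, and PTPRC itself fell (log2 fold change -3.51, adjusted p = 1.6e-04, edgeR). TLR2 had 539 and 247 counts per 1000 PTPRC counts in GFP-HI, against 508 and 142 in GFP-NEG, so the fractions overlapped. TLR4 likewise overlapped, at 566 and 231 against 656 and 81.9. TLR8 was at 12.8 and 11 against 9.72 and 16.9, and TLR9 at 62.1 and 9.42 against 26.2 and 31.6, with both overlapping. The log2 fold changes of these 4 receptors, -3.25 for TLR2 to -3.82 for TLR8, lay on both sides of that of PTPRC.

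TLR5 and TLR3 stood far from PTPRC. A typical gene does so as well: the median log2 fold change of all genes tested was -0.25, against -3.51 for PTPRC. TLR5 had 466 and 85.6 counts per 1000 PTPRC counts in GFP-HI, against 8.82 and 2.35 in GFP-NEG, and TLR3 had 881 and 296 against 38.7 and 10.7. TLR1 (74.0 and 50.0 against 27.4 and 16.3) and TLR6 (67.1 and 31.5 against 8.59 and 11) were also higher on this scale in both GFP-HI libraries. TLR10 was the 1 receptor that was lower in both, at 2.96 and 0.819 against 7.01 and 8.58, from the 3 and 2 counts given above.

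**Figure D4:**
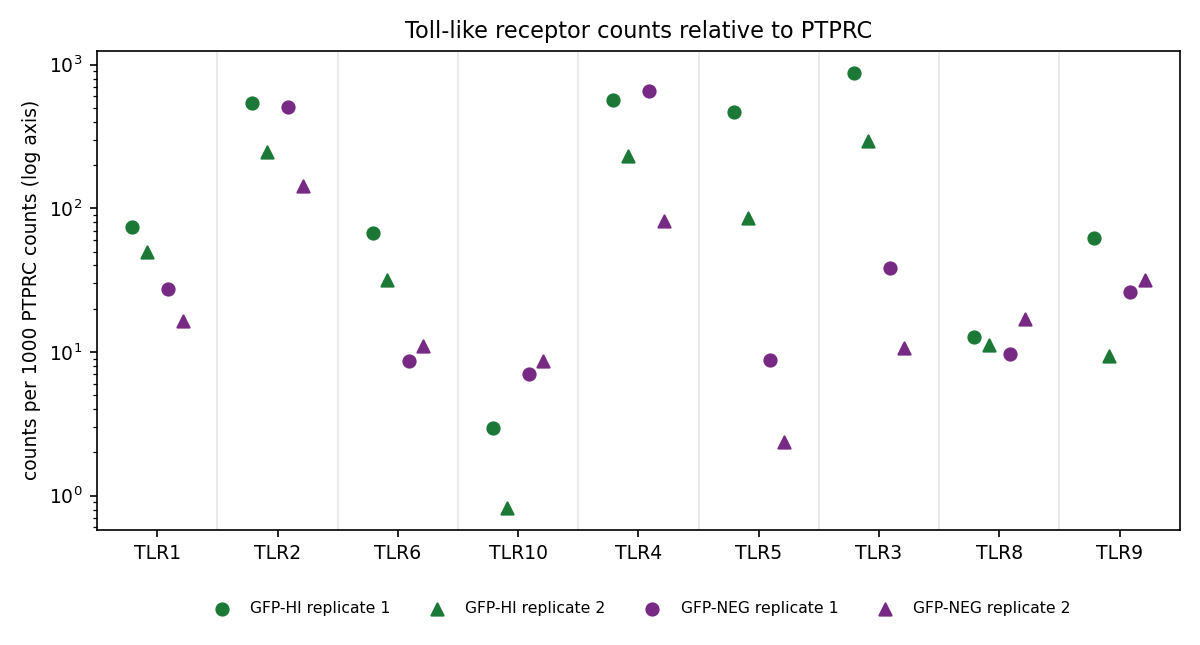
Counts of each receptor per 1000 PTPRC counts (log axis) in each of the 4 libraries. TLR2, TLR4, TLR8 and TLR9 overlap between the fractions, TLR3 and TLR5 are higher in GFP-HI by at least 7.65 and 9.71 times between the nearest libraries, and TLR10 is lower.

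The other genes of the pathway were taken from 7 lists, with 89 tested genes, of which 41 were lower and 2 were higher in GFP-HI (the background is 27.6% and 8.35% of all genes). Their median log2 fold change was -1.10. Genes are named below in the order of the signal, from ligand capture to the induced cytokines.

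Of 13 tested accessory proteins, which capture ligand or fold and transport the receptors, 5 were lower, 1 was higher and 7 did not pass. CD14, which hands lipopolysaccharide to TLR4, fell from 163 ± 85.2 CPM in GFP-NEG to 10.3 ± 5.24 CPM in GFP-HI (SD, n = 2 each), a log2 fold change of -3.98 (adjusted p = 8.6e-09, edgeR). LY96, the MD-2 subunit without which TLR4 does not bind lipopolysaccharide, did not follow TLR4 and CD14. LY96 was chosen after its values were seen, and was at 38.3 and 66.9 CPM in GFP-HI against 45.0 and 28.0 CPM in GFP-NEG (log2 fold change 0.53, SE 0.51, adjusted p = 0.45). CD180, a relative of TLR4 on B cells, and its partner LY86 had log2 fold changes of -3.19 and -2.65. UNC93B1, which carries the endosomal receptors out of the endoplasmic reticulum, fell by 1.78 (adjusted p = 0.0034), but its GFP-HI libraries were at 45.2 and 6.79 CPM. HSP90B1, the chaperone of most Toll-like receptors and also chosen after its values were seen, was at 795 ± 40.1 CPM in GFP-HI against 415 ± 55.3 CPM in GFP-NEG and did not pass (0.94, adjusted p = 0.36). LGMN, a lysosomal protease that can cleave endosomal receptors, was higher by 2.96 (adjusted p = 0.0044), at 1080 and 2330 CPM against 340 and 99.0 CPM. Single libraries decided 3 of these calls: LGMN was lost without GFP-HI replicate 2 (adjusted p = 0.062) or GFP-NEG replicate 2 (0.18), UNC93B1 without GFP-HI replicate 2 (-0.96, 0.28) or GFP-NEG replicate 1 (-1.44, 0.093), and LY86 without GFP-NEG replicate 2 (-1.93, 0.060). Fewer genes of this list, and fewer of all genes tested, were called lower without GFP-NEG replicate 2.

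Of 5 adaptors, 2 were lower and 3 did not pass. MYD88, the adaptor of every Toll-like receptor except TLR3, was at 142 and 79.7 CPM in GFP-HI against 411 and 276 CPM in GFP-NEG, and fell by 1.63 (adjusted p = 0.034, edgeR). Its call was lost without GFP-HI replicate 2 (adjusted p = 0.28), without either GFP-NEG library (0.20 and 0.13), and with no filter on low counts (0.055). PIK3AP1, which links the receptors to phosphoinositide 3-kinase, fell by 3.86 (adjusted p = 1.6e-08). Of the adaptors that did not pass, TICAM1, which TLR3 uses, was at 21.3 ± 12.9 CPM in GFP-HI against 35.5 ± 3.64 CPM in GFP-NEG (SD, n = 2 each; log2 fold change -0.74, adjusted p = 0.29). TICAM1 was also chosen after its values were seen.

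Of 16 kinases, ubiquitin ligases and partners, 5 were lower, which is near the 27.6% of all genes tested, and 11 did not pass. BTK, a kinase of B and myeloid cells, fell by 3.83, and IKBKE, an IRF kinase, fell by 3.45. IRAK2, a kinase of the MYD88 complex, fell by 3.25, and MAP3K8, a kinase upstream of ERK, fell by 3.20. Their adjusted p-values were 1.7e-06 or less, and all 4 kept their call in all 15 alternatives. The 11 others, among them IRAK1, IRAK4, TRAF6, TBK1 and MAP3K7 (named after their values were seen), had log2 fold changes between -0.91 and 0.78.

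Of 11 transcription factors, 5 were lower and 6 did not pass. IRF5, which acts after MYD88, fell by 3.95, from 192 ± 72.1 CPM in GFP-NEG to 12.4 ± 1.09 CPM in GFP-HI (SD, n = 2 each). SPI1, the PU.1 factor of myeloid and B cells, fell by 3.84, and REL, an NF-kappa-B subunit of lymphoid and myeloid cells, fell by 2.91. IRF7, the interferon regulator, fell by 2.86 (adjusted p = 0.0010), but its GFP-HI libraries were at 202 and 16.8 CPM, and the call was lost without GFP-HI replicate 2 (-1.96, adjusted p = 0.19) or GFP-NEG replicate 1 (-1.90, 0.054). Without either of these libraries, fewer genes of this list and fewer of all genes tested were called lower. RELA and NFKB1, the NF-kappa-B subunits found in most cells, were named after their values were seen and had log2 fold changes of 0.08 and -0.28 (adjusted p = 0.92 and 0.73).

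Of 15 negative regulators, 7 were lower and 8 did not pass. NFKBIA, the inhibitor of NF-kappa-B that NF-kappa-B itself induces, fell by 3.25 (adjusted p = 0.015), at 479 ± 222 CPM in GFP-HI against 4560 ± 2470 CPM in GFP-NEG. ATF3 fell by 3.13, DUSP1 fell by 2.43 and ZC3H12A fell by 3.04. ATF3 and DUSP1 also belong to a list of 9 genes induced by tissue dissociation, of which 6 were lower, with sums of 3410 and 1910 CPM in GFP-HI against 12000 and 9060 CPM in GFP-NEG. The part of dissociation in these values was not tested. Without GFP-HI replicate 2, fewer negative regulators, and fewer of all genes tested, were called lower, and a negative regulator was called higher. NFKBIA, ATF3 and DUSP1 lost their calls there, with log2 fold changes of -2.82, -2.45 and -1.91. Without GFP-NEG replicate 1 or GFP-NEG replicate 2, fewer were also called lower, in the list and over all genes. DUSP1 lost its call without GFP-NEG replicate 1 (log2 fold change -2.03), and NFKBIA without GFP-HI replicate 1 (-3.77).

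Of 14 tested cytokine and chemokine genes that these receptors can induce, 9 were lower, 1 was higher and 4 did not pass, with a median of -2.53. CXCL2 and CXCL8, which attract neutrophils, had log2 fold changes of -4.54 and -3.69, CCL5, which attracts T cells, fell by 4.26, and the cytokine IL1A fell by 3.05. Their adjusted p-values were 1.7e-06 or less. CCL2, which attracts monocytes, was higher by 1.94 (adjusted p = 0.0064), at 239 and 268 CPM in GFP-HI against 115 and 17.5 CPM in GFP-NEG. The CCL2 call was lost without GFP-HI replicate 2 (adjusted p = 0.078) or GFP-NEG replicate 2 (1.14, 0.46).

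Of 15 pattern sensors outside the Toll-like family, 8 were lower and 7 did not pass. NOD2, which senses peptidoglycan fragments, fell by 3.84, and NLRP3, which starts an inflammasome, fell by 3.59. NLRC5, a regulator of MHC class I genes, fell by 2.94, and CLEC7A, the receptor for fungal glucans, fell by 2.75. Their adjusted p-values were 1.8e-04 or less. MAVS, the adaptor of the RNA helicases and named after its values were seen, was at 104 ± 17.1 CPM in GFP-HI against 61.2 ± 12.7 CPM in GFP-NEG and did not pass (0.77, adjusted p = 0.28).

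**Figure D5:**
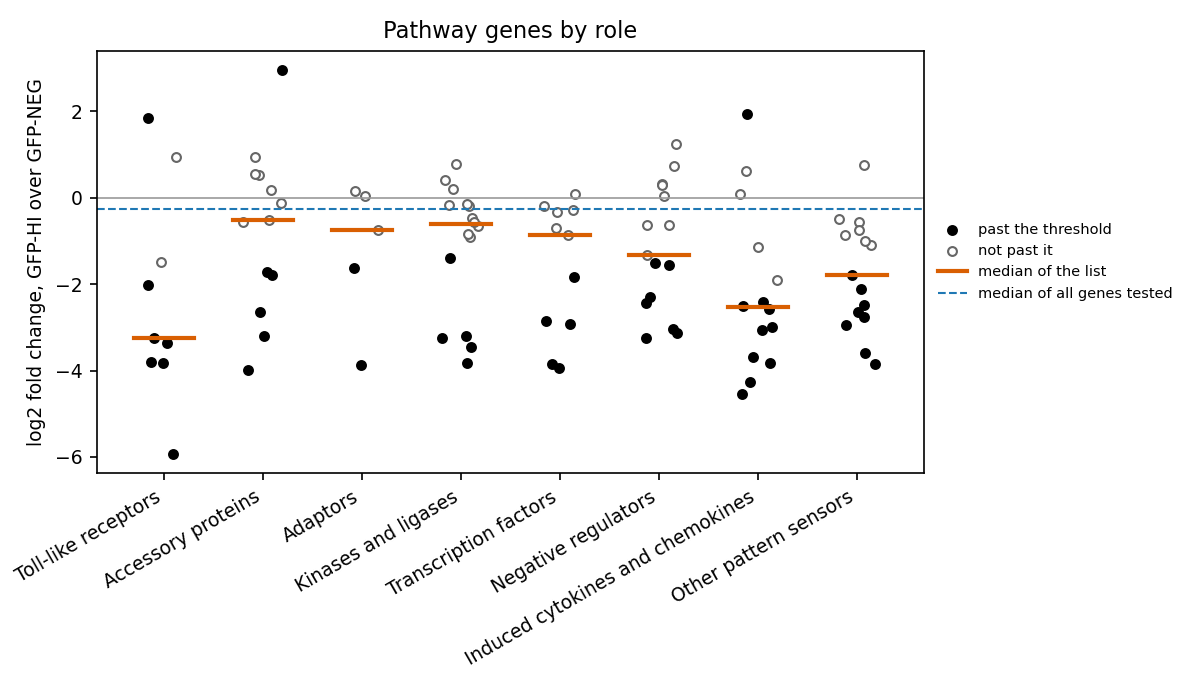
Log2 fold change of GFP-HI over GFP-NEG for each tested gene of the Toll-like receptors and the 7 pathway lists, with filled circles for genes past the threshold, the median of each list in orange and the median of all genes tested (-0.25) as a dashed line. Genes past the threshold lie below 0 except TLR5, LGMN and CCL2.

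By distance between profiles of log2(CPM + 1), each centred on its mean over the 4 libraries, the genes most like TLR4, the receptor with the highest mean CPM in GFP-NEG (not per length), were, among 10555 candidates, CA4, PLIN5 and IL1R2, with distances of 0.29, 0.336 and 0.364. CA4, a carbonic anhydrase of lung capillaries, was at 9.02 and 9.57 CPM in GFP-HI and at 138 and 28.7 CPM in GFP-NEG, with the same excess in GFP-NEG replicate 1 as TLR4. IL1R2, a decoy receptor for interleukin 1, was at 7.25 and 8.48 CPM against 190 and 37.1 CPM. For TLR3, with the highest mean CPM in GFP-HI, they were GNA11, PTPN14 and DNAH10, at distances of 0.049, 0.073 and 0.08. These distances rest on 4 libraries and describe them only.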

How the data were processed

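Per the submitters' processing notes, featureCounts, Subread 1.5.2 and DESeq2 1.37.6 were used. The aligner, strand setting, filters and genome build are not given in the sources used here, and gene lengths were not used, so levels were compared within genes only. The authors deposited 1 table of raw counts per library (29263 genes, each row a gene) and a comparison table. Per the file headers the latter holds the same counts (4 of 4 columns identical), normalized signal, a log2 fold change, a test score and p-values. Its normalized signal was not used, because headings of that deposited table name other libraries than those whose counts they carry. Columns of values per sample left over numbered 0. Of the Ensembl identifiers, 844 could be given a symbol from the names table and 834 were renamed.

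The test was edgeR 4.0.16 (R 4.3.3; glmQLFit, glmQLFTest, TMM factors, filterByExpr, group only), Benjamini-Hochberg over 19682 genes, threshold 0.05. The prior degrees of freedom were infinite, so a gene's own scatter carried no weight in its SE or p-value. Both rest on a spread shared over genes, and only between these libraries. The SE is the size of the log2 fold change divided by the square root of F. Alternatives were other scalings, filters, DESeq2 1.42.0, the replicate block, thinning, a 2-fold null, summed paralogs and each library left out. Libraries were paired by replicate number in the block. Pig numbers stand only in the headings of the normalized columns, some of which are exchanged, so that the pairs share an animal is not certain. The deviations of same-numbered libraries correlated at r = 0.16 across genes.

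The members and lists were chosen with earlier results of these data known. Named genes are the 9 receptors, LGR5 and, for each pathway list and direction, up to 4 called genes with a mean of at least 5 CPM and the largest change. Others are marked as chosen after their values were seen.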

Additional observations from a re-analysis of the deposited data

How the results depend on the processing

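The 9 receptors kept their direction in all alternatives run (15, or 14 for TLR1, TLR6 and TLR10, whose counts are summed in the last). With libraries paired by replicate number (the replicate block), 6 receptors were lower and 1 higher, and 4793 genes were lower and 1707 higher, against 5433 and 1643. The block changed no call of a receptor. The sensor IFIH1 gained a call with it (-1.48, adjusted p = 0.042, edgeR). TLR5, the receptor called higher, left 0 calls in that direction with upper-quartile scaling, with plain library size, with DESeq2 with the replicate block, thinning and a null of a 2-fold change, which by construction lets fewer genes pass. The number of lower receptors was 4 to 6, and of higher receptors 0 to 1, when single libraries were left out, a fit that assumes the lone library varies like the other group. In those fits 204 to 1539 genes were higher and 1373 to 4680 lower, the fewest without GFP-NEG replicate 2. Over all genes, upper-quartile scaling gave 1083 higher, plain library size 888 and the 2-fold null 711, and 3153 were lower under DESeq2 with the replicate block and 3562 after thinning. The cause was not tested. Scaling moved the median of all genes from -0.25 to -0.58 with the upper quartile and to -0.68 with plain library size. With 1 library left out, RIGI lay between -3.83 and 1.30, and DHX58 between -3.93 and 1.15. In GFP-NEG 1 count is worth 0.159 and 0.142 CPM before TMM scaling, which limits low receptors there.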

Other observations

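The sensors of cytosolic double-stranded RNA, RIGI, IFIH1 and DHX58, were higher in the replicate 1 library than in the replicate 2 library of both fractions. RIGI was at 308 CPM in GFP-HI replicate 1 and 413 CPM in GFP-NEG replicate 1, and at 16.3 and 65.9 CPM in the replicate 2 libraries of the same fractions. DHX58 was at 289 and 357 CPM in the replicate 1 libraries and at 13.5 and 68.4 CPM in the replicate 2 libraries. IFIH1 was at 112 and 179 CPM in replicate 1 and at 14.9 and 72.8 CPM in replicate 2. IRF7, the interferon regulator, had the same order, with 202 and 1190 CPM in replicate 1 and 16.8 and 408 CPM in replicate 2. TLR3, which senses the same kind of RNA in endosomes, was at 40.5 and 26.5 CPM in replicate 1 and at 35.8 and 12.9 CPM in replicate 2. RIGI, IFIH1 and DHX58 did not differ past the threshold between the fractions (log2 fold changes of -0.56, -0.99 and -0.49, adjusted p of 0.52, 0.15 and 0.57, edgeR), and IFIH1 passed with the replicate block (-1.48, adjusted p = 0.042). The difference between replicates was not tested, and RIGI, IFIH1 and DHX58 were named after their values were seen.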
